A study of Homo sapiens with 12 samples.

Results

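Metallothioneins are small cysteine-rich proteins that bind zinc and copper in the cytosol, and the genes examined here are MT2A, MT1E, MT1F, MT1G and MT1X together with MTF1, the zinc-sensing transcription factor that drives them, and SLC30A1, the zinc exporter of the plasma membrane (ZnT1). These 7 genes were listed by symbol, with earlier results of these data known, and each is present in the table, which holds 12451 genes in all. The cells were MDA-MB-231-ERβ, a triple negative breast cancer cell line stably engineered to express full length human ERβ when doxycycline (dox) is added. They were grown in charcoal-stripped serum with dox and given ethanol vehicle or 1 nM estradiol (E2) for 5 days, and TNFα at 20 ng/ml was added for the final 3 h where stated. The 12 libraries form 4 groups of 3, namely vehicle, TNFα, E2 and E2+TNFα. Dox is named in the labels of the first 3 groups, and for E2+TNFα it is taken from the methods of the study. All groups therefore carry ERβ, and no library without dox was used here.

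In resting cells MTF1 is largely inactive, and when free zinc rises it enters the nucleus and binds short metal response elements in the promoters of metallothionein genes and of SLC30A1. Metallothioneins then take up the excess metal, and SLC30A1 moves zinc out of the cell. The same promoters also answer to other signals. MT2A is a classical target of the glucocorticoid receptor, and metallothioneins as a family are induced by metals, oxidative stress and inflammatory cytokines in many cell types. MT2A is usually the most abundant metallothionein in cultured epithelial cells, including breast cancer lines.

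The metallothionein genes lie side by side on chromosome 16 (hg38), and their coding sequences are so alike that short reads can fall on more than 1 of them. The rows of MT2A (chr16:56608566-56609497, plus strand), MT1E (chr16:56625673-56627112, plus), MT1F (chr16:56657943-56659303, plus), MT1G (chr16:56666735-56668065, minus) and MT1X (chr16:56682470-56684196, plus) each cover 3 exons. A 6th row, MT1A (chr16:56638666-56640087), is the other metallothionein of this cluster in the table. Below is the second of the 3 coding exons of the 5 metallothioneins chosen, in hg38, 5′ to 3′ on the strand of the gene, shown because it lets the closeness of the copies be seen. Capitals mark the bases that differ from MT2A, and in MT1G also the 3 extra bases at the 5′ end.
MT2A: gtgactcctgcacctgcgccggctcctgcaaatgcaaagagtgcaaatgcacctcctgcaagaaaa
MT1E: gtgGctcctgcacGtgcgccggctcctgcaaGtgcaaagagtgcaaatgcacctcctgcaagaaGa
MT1F: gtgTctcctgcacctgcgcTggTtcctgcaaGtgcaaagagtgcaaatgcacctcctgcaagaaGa
MT1G: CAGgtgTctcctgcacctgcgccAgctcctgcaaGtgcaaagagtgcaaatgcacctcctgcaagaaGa
MT1X: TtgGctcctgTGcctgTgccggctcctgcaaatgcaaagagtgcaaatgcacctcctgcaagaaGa
MT1E and MT1G differ from MT2A at 4 of these 66 bases, MT1F at 5 and MT1X at 6. Over the whole coding sequence, of 61 codons (62 in MT1G) with 20 cysteine codons in each of these copies, pairwise identity ran from 88.5% between MT1F and MT1X to 93.5% between MT1G and MT2A. Of all 50-base stretches of the transcript, 20.1% in MT1E, 20.3% in MT1X, 21.3% in MT1G, 11.1% in MT2A and 6.12% in MT1F also occur without mismatch elsewhere in the genome or in a transcript of another gene. With 2 mismatches allowed, 53.2% of the stretches of MT1E and 11.7% of those of MT1F match another metallothionein. How the counting treated such reads is not given in the sources used here, so the split of counts between the copies is uncertain, most of all for a rare copy beside MT2A. MTF1 (chr1:37809567-37859624, minus) and SLC30A1 (chr1:211575039-211578757, minus) have no such problem, with 1.39% and 0% of stretches found elsewhere. The SLC30A1 row covers 2018 exon bases, against 5893 in its full transcript, so a large part of the transcript was not counted.

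The promoters of the zinc-responsive genes are shown because the letters through which MTF1 acts can be seen in them. The RefSeq promoter table (GRCh38.p14) held 4 of the 7 genes, namely MT2A, MT1X, MTF1 and SLC30A1. The 250 bases before the transcription start are given 5′ to 3′ on the strand of the gene, with capitals for matches to the core of the metal response element, TGCACNC or TGCGCNC, on either strand.
MT2A: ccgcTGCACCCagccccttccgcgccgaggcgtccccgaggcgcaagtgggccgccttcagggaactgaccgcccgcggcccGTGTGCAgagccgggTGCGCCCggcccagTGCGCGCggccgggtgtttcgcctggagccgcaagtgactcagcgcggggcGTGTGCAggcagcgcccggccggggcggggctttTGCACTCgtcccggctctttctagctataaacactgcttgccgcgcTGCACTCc
MT1X: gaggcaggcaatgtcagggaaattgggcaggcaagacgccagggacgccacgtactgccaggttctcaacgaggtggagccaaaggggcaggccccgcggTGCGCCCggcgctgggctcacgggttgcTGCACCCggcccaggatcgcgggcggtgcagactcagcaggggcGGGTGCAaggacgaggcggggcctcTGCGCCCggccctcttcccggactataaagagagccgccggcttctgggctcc
SLC30A1: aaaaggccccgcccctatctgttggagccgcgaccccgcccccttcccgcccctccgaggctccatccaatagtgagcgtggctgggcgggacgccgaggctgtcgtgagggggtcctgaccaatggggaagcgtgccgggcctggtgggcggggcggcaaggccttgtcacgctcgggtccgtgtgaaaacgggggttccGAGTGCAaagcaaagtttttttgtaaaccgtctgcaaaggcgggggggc
The MT2A window (chr16:56608334-56608583) holds 7 matches, a number reached by 0.0313% of the 35116 RefSeq windows of this length. The MT1X window (chr16:56682220-56682469) holds 4, a number reached by 0.370% of windows, and the SLC30A1 window (chr1:211579162-211579411) holds 1, a number reached by 24.8% of windows. The matches do not overlap each other. The MTF1 window (chr1:37859593-37859842) holds no match to these letters. A match is a run of letters and not a measured binding site.

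Total counts ran from 7652016 to 39943664 per library, and the E2 libraries were the shallowest (at most 15755240). The vehicle libraries stood apart from the other 9. Within each of them, genes with GC-poor exons had relatively more counts (Spearman correlation of each gene's deviation from its mean with exon GC content, across genes, −0.63 to −0.72), whereas the others ranged from −0.11 to 0.74. No label names a batch, though the methods of the study describe a correction for batch effects without saying which libraries formed a batch. Whatever set the vehicle libraries apart cannot be told apart from the treatments in any comparison with vehicle. The fold changes of E2+TNFα against TNFα are differences between the other libraries, and that comparison is therefore described first, although the vehicle libraries entered its estimate of the spread, which all 4 groups share. E2 replicate 2 is the shallowest library and also leans strongly to GC-rich genes (0.67). Outside vehicle, the highest and the lowest of these correlations were both in the E2+TNFα group (0.74 in replicate 3, −0.11 in replicate 2). ESR2, the gene of ERβ, was counted in every library, at 228 to 507 CPM (counts scaled to the effective size of the library). GREB1, a target of E2 through estrogen receptors, was at 3.28 to 4.60 CPM without E2 and at 44.9 to 61.6 CPM with it. TNF, which TNFα itself induces, was at 0.258 to 0.362 CPM in vehicle and 33.9 to 38.6 CPM with TNFα alone. Its log2 fold change was −2.07 in E2+TNFα relative to TNFα, and relative to vehicle 4.77 with E2+TNFα and 2.03 with E2. Of 8 TNFα response genes, 6 rose and 1 (BIRC3, −2.67) fell in TNFα relative to vehicle, where 40.3% of all genes rose and 41.6% fell. The defining markers VIM, CD44, AXL and CAV1 of this mesenchymal line were at 152 CPM or more in all 12 libraries, and ANXA1 fell to between 7.80 and 94.1 CPM outside vehicle. Of the markers listed as low or absent in the line, ESR1 and PGR are not in the table, ERBB2 was at 85.6 to 123 CPM and EPCAM at 6.53 to 15.6 CPM, and CDH1 reached 53.3 CPM with E2 against at most 3.61 CPM without it. Of 7 markers of other cell types, CD68 was at 73.2 to 106 CPM and COL1A1 at 3.43 to 12.8 CPM, and the other 5 are not in the table.

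MT2A made up nearly all of the metallothionein message. Per length, as CPM divided by kilobases of exon (RPKM, the scale on which genes can be compared), mean levels in vehicle were 4535 ± 338 (SD, n = 3) for MT2A, 336 ± 33.7 for MT1E, 82.4 ± 6.89 for MT1X, 5.53 ± 0.154 for MT1A, 2.97 ± 0.331 for MT1F and 0.757 ± 0.355 for MT1G. MTF1, at 5.48 ± 0.351 RPKM, and SLC30A1, at 7.36 ± 1.80 RPKM, were near the level of MT1A. The ranges of MTF1 and MT1A and those of MTF1 and SLC30A1 overlapped in vehicle, whereas neighbours among MT2A, MT1E and MT1X were far apart beyond their spread. The order MT2A, MT1E, MT1X held for the mean level in all 4 groups. MT2A took 91.4% ± 0.890 of metallothionein RPKM in vehicle, 91.2% ± 0.741 with TNFα, 89.0% ± 1.29 with E2 and 90.6% ± 1.36 with E2+TNFα (SD, n = 3). Together the 6 metallothionein rows took 0.255% of all counts in vehicle, 0.211% with TNFα, 0.124% with E2 and 0.115% with E2+TNFα.

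**Figure D1:**
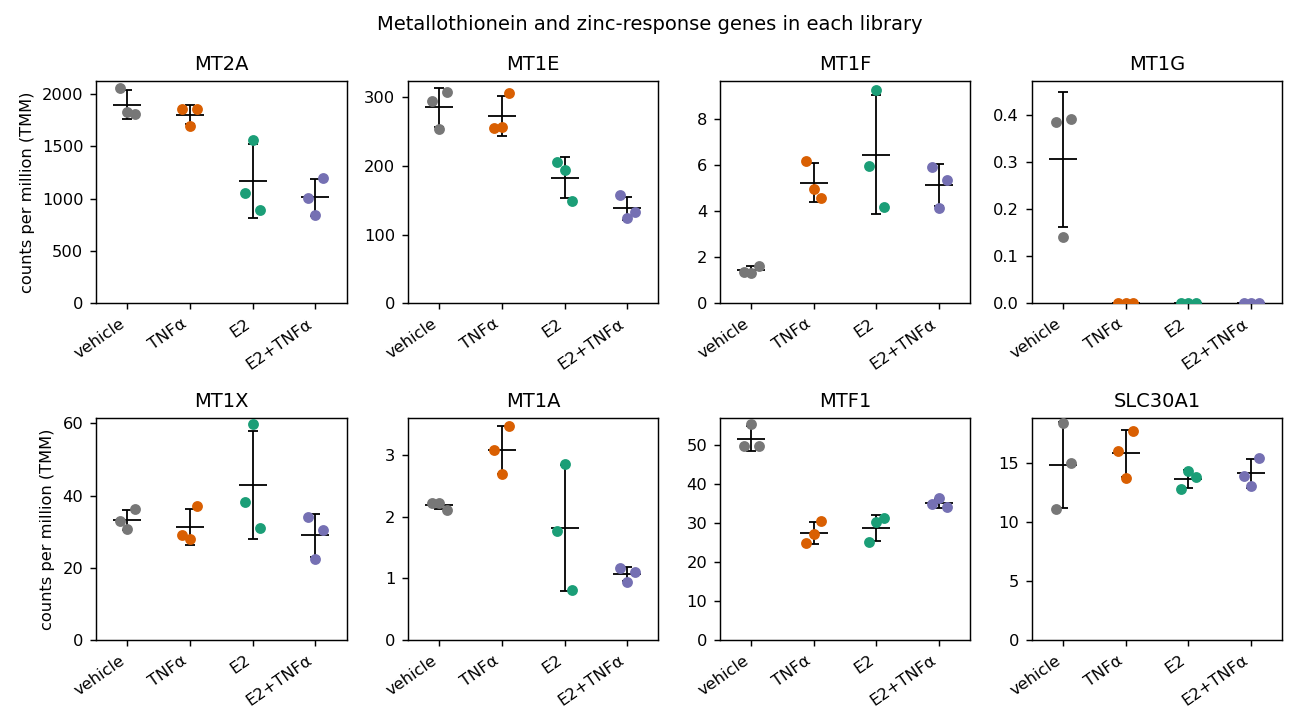
Level of each gene in each library, in CPM after TMM scaling (linear axes from 0, 1 scale per gene), with 1 point per library and the mean ± SD of the 3 libraries in black. MT2A and MT1E are lower in both groups given E2, MT1F is lowest and MTF1 highest in vehicle, and MT1G has counts in the vehicle libraries and in none of the other 9.

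In cells given TNFα, MT2A and MT1E were lower after 5 days of E2, at 56.2% and 50.7% of their level without it, while MT1F, MT1X and SLC30A1 did not pass the test. MT2A, the most abundant copy, was at 1857, 1698 and 1854 CPM with TNFα and at 1004, 839.5 and 1197 CPM with E2+TNFα. Every E2+TNFα library was below every TNFα library. The log2 fold change was −0.83 ± 0.18 (SE), with an adjusted p of 0.00209 in the quasi-likelihood test of edgeR. MT1E, the second most abundant copy, was at 255, 256 and 305.5 CPM with TNFα and at 157, 124 and 133 CPM with E2+TNFα, again without overlap. Its log2 fold change was −0.98 ± 0.14, with an adjusted p of 7.16e-05. In bulk RNA, fewer cells that express a gene and less RNA per cell cannot be told apart. The methods of the study describe cells plated in triplicate dishes, so p-values measure the spread between dishes of this experiment.

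MT1A, the rare copy between MT1E and MT1F, was also lower with E2+TNFα than with TNFα. Its coding sequence is 94.5% identical to that of MT1E and 92.3% to that of MT2A. Whether reads of these more abundant copies were counted as MT1A was not tested. MT1A was at 3.09, 2.70 and 3.48 CPM with TNFα and at 1.17, 0.943 and 1.11 CPM with E2+TNFα. These values rest on 67 to 94 counts in a TNFα library and 19 to 37 in an E2+TNFα library, and the groups did not overlap. Its log2 fold change of −1.52 ± 0.32 (adjusted p = 0.00162, edgeR) was past the thresholds of the study, which ask for a log2 fold change of at least 1.5 in either direction, p under 0.05 and adjusted p of at most 0.1. It was −1.44 without TNFα replicate 3 or without E2+TNFα replicate 2, which is under that size. TESMIN, a testis protein named for its likeness to metallothioneins and the only other gene of that list in the table, fell by 0.89 ± 0.21 (adjusted p = 0.00337). MT1X, whose promoter also holds several matches to the metal response element, was at 29.0, 27.9 and 37.1 CPM with TNFα and at 34.0, 22.4 and 30.5 CPM with E2+TNFα. These ranges overlapped and the difference was −0.11 (95% interval −0.57 to 0.34), though it was −0.49 (adjusted p = 0.0577, edgeR) after removal of each library's trends with exon GC content and gene length, and −0.32 (adjusted p = 0.0841) with a factor of unwanted variation (RUV) estimated from 20 housekeeping genes. MT1F was at 6.18, 4.95 and 4.57 CPM with TNFα and at 5.92, 4.12 and 5.35 CPM with E2+TNFα, a difference of −0.038 (95% interval −0.60 to 0.53).

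The zinc sensor and the exporter did not follow MT2A in this comparison. MTF1 was at 24.8, 27.2 and 30.5 CPM with TNFα and at 34.9, 36.4 and 34.1 CPM with E2+TNFα. Each E2+TNFα library was above each TNFα library, and the log2 fold change was 0.35 ± 0.13 (adjusted p = 0.0413, edgeR), but the adjusted p was 0.169 without TNFα replicate 1 and 0.116 without TNFα replicate 2. SLC30A1 was at 16.1, 13.7 and 17.7 CPM with TNFα and at 13.9, 13.0 and 15.5 CPM with E2+TNFα, with a difference of −0.16 (95% interval −0.56 to 0.24). A fall of SLC30A1 as large as that of MT2A lies outside that interval.

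Of the 7 genes, 6 reached an RPKM of 1 in at least 3 libraries and were tested, all but MT1G. In E2+TNFα relative to TNFα, 2 of the 6 fell (MT2A and MT1E) and 1 rose (MTF1) at an adjusted p of at most 0.1, where 21.0% of all 11303 genes tested fell and 24.4% rose. None of the 6 was past the thresholds of the study, which 5.56% of all genes passed. The median log2 fold change of the 6 was −0.14, beside 0.042 for all genes. Fold changes followed exon GC content only weakly in this comparison (Spearman correlation −0.21 across genes, which are not independent replicates), against 0.66 in E2 relative to vehicle, and the 565 genes in the same bin of GC content as MT2A had a median of −0.046. With the trends removed, MT2A was at −1.16 and MT1E at −1.15. Over the 11 other treatments of the counts and the 12 libraries left out in turn, MT2A ranged from −1.16 to −0.71 and MT1E from −1.15 to −0.89, with adjusted p at most 0.0129 and 0.000758. Fitted on these 6 libraries alone, MT2A was at −0.85 (adjusted p = 0.000453, edgeR) and MT1E passed with an adjusted p of 6.12e-05.

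**Figure D2:**
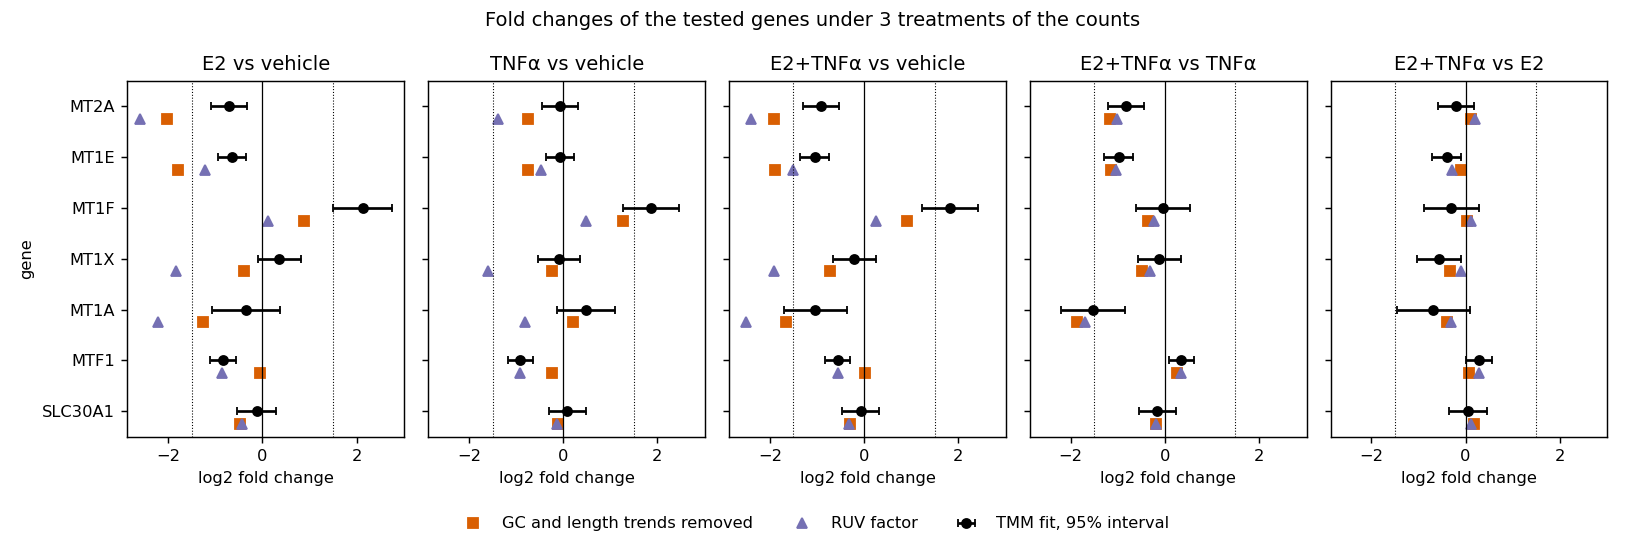
Log2 fold change of each tested gene (rows) in 5 comparisons (panels), as fitted after TMM scaling with its 95% interval (black), after removal of each library's trends with GC content and gene length (orange squares) and with the RUV factor (purple triangles). Dotted lines mark a log2 fold change of 1.5 in either direction. In E2+TNFα against TNFα the 3 estimates for MT2A lie between −0.83 and −1.16, whereas in E2 against vehicle they run from −0.70 to −2.60, and MT1F runs from 2.13 down to 0.12.

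Without TNFα the same copies were lower with E2 than with vehicle, by an amount that depended on the treatment of the counts. MT2A was at 2063, 1828 and 1810 CPM in vehicle and at 1054, 1566 and 888 CPM with E2. The groups did not overlap, and E2 replicate 2 was the highest of its group. The log2 fold change was −0.70 ± 0.18 (adjusted p = 0.00225, edgeR), −0.92 without that library. It was −2.03 after removal of the trends with GC content and length and −2.60 with the RUV factor. That factor was 0.42 to 0.50 in the vehicle libraries and −0.41 to 0.017 in all others. Adjusting for it therefore cannot be told apart from the difference between vehicle and the treatments. Of its 20 housekeeping genes, 13 rose and 3 fell in this comparison, where 40.1% of all genes rose and 41.7% fell. MT1E was at 295, 253 and 307 CPM in vehicle and at 205, 194 and 149 CPM with E2, and its log2 fold change of −0.64 ± 0.14 (adjusted p = 0.000711, edgeR) became −1.79 with the trends removed and −1.22 (adjusted p = 0.115) with the RUV factor. The direction was the same in every treatment of the counts for both genes. Their exons are rich in GC (56.3% for MT2A, 55.3% for MT1E), and the 565 genes in the GC bin of MT2A had a median log2 fold change of 0.65 in this comparison (middle 50% from 0.081 to 1.26). Both genes thus lay below most genes of like composition.

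MT1F, which binds metal like the other copies and is expressed at a low level, went the other way. It was at 1.38, 1.31 and 1.62 CPM in vehicle and at 5.94, 9.23 and 4.15 CPM with E2. These values come from 56 to 74 counts in a vehicle library and 46 to 87 in an E2 library. All E2 libraries were above all vehicle libraries, and the log2 fold change of 2.13 ± 0.29 (adjusted p = 7.83e-06, edgeR) was past the thresholds of the study. It was 0.88 with the trends removed and 0.12 (adjusted p = 0.940) with the RUV factor. MT1X, at 33.0, 30.7 and 36.2 CPM in vehicle and 38.3, 59.7 and 31.0 CPM with E2, had overlapping groups and a difference of 0.36 (95% interval −0.10 to 0.81), which was 0.51 (adjusted p = 0.0439, edgeR) without E2 replicate 3 and −1.83 (adjusted p = 0.0430) with the RUV factor. In both genes E2 replicate 2 was again the highest library of its group.

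MTF1 was at 49.7, 55.5 and 49.9 CPM in vehicle and at 25.1, 30.2 and 31.3 CPM with E2. The groups did not overlap and the log2 fold change was −0.85 ± 0.13 (adjusted p = 2.61e-05, edgeR). Its exons are long (9433 bases) and less rich in GC (46.7%), and the 565 genes in its GC bin had a median of −0.39 in the same comparison. With the trends removed the difference was −0.055 (adjusted p = 0.609). Over the 11 other treatments of the counts it ran from −1.20 to −0.052, and it passed at an adjusted p of 0.1 in 8 of them. SLC30A1 was at 11.1, 18.4 and 15.1 CPM in vehicle and at 12.8, 14.3 and 13.8 CPM with E2, with a difference of −0.13 (95% interval −0.53 to 0.28), which was −0.48 (adjusted p = 0.0247, edgeR) with the trends removed. In E2 relative to vehicle 3 of the 6 tested genes fell (MT2A, MT1E and MTF1) and 1 rose (MT1F) at an adjusted p of at most 0.1, where 41.7% of all genes fell and 40.1% rose. MT1F alone was past the thresholds of the study, which 30.5% of all genes passed, so neither count stands out from the background. The study, which corrected its counts for batch effects, reported fewer regulated genes for E2 at these thresholds. The median of the 6 was −0.38, beside −0.020 for all genes.

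**Figure D3:**
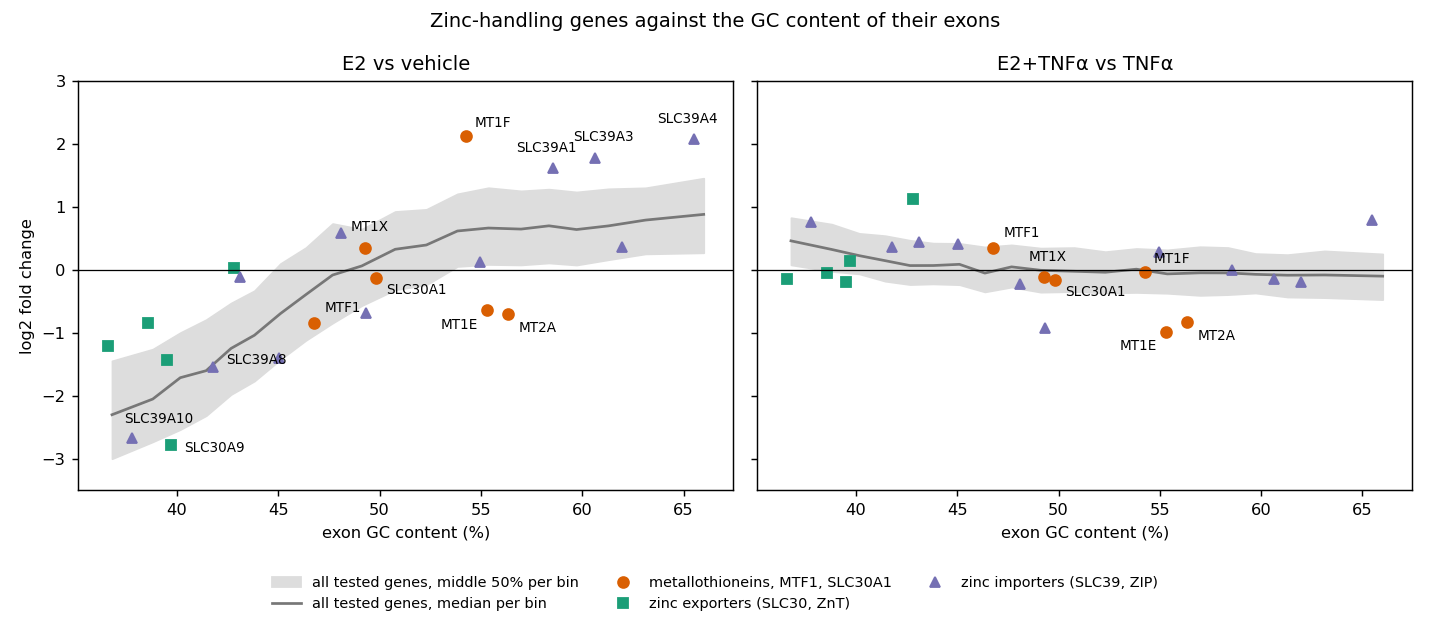
Log2 fold change against exon GC content (%) in E2 against vehicle (left) and E2+TNFα against TNFα (right), for the tested genes of this report (orange), other zinc exporters (green) and zinc importers (purple). The grey line and band are the median and middle 50% of all tested genes in 20 bins of GC content. Across bins the median rises with GC on the left, and on the right it falls from 0.46 in the GC-poorest bin to −0.098 in the GC-richest, and MT2A and MT1E lie below the band in both panels.

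MT1G was counted in vehicle libraries only, with 16, 6 and 18 counts, and had 0 counts in each of the 9 other libraries. A count of 0 allows up to 3 counts over the 3 libraries of a group. The pooled CPM observed in vehicle was 8.26 times that limit for TNFα, 3.29 times for E2 and 8.04 times for E2+TNFα. These ratios cover the counting error of the zeros only. They take the 40 vehicle counts as exact and leave out the spread between dishes, so they are not lower bounds on the fold difference. A total of 40 counts beside 246248 counts of MT2A in the same libraries is small, and as given above 21.3% of the stretches of MT1G occur in other genes.

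TNFα alone left MT2A and MT1E close to their level in vehicle. MT2A was at 1857, 1698 and 1854 CPM against 1810 to 2063 CPM in vehicle, a difference of −0.076 (95% interval −0.46 to 0.30), and MT1E differed by −0.067 (95% interval −0.37 to 0.23). With the trends removed the differences were −0.75 for MT2A and −0.74 for MT1E (adjusted p = 6.53e-05 and 2.89e-06, edgeR), so this result depended on the treatment of the counts. MT1F was higher, with 4.57 to 6.18 CPM against 1.31 to 1.62 CPM in vehicle, and rose by 1.87 ± 0.28 on the log2 scale (adjusted p = 2.12e-05). The difference was 1.26 with the trends removed and 0.48 (adjusted p = 0.646) with the RUV factor. MTF1 was lower, with 24.8 to 30.5 CPM against 49.7 to 55.5 CPM, a log2 difference of −0.91 ± 0.13 (adjusted p = 1.10e-05) that was −0.25 with the trends removed. Over the 11 other treatments of the counts it ran from −1.11 to −0.25 and passed at an adjusted p of 0.1 in all of them. MT1X and SLC30A1 differed by −0.090 (95% interval −0.54 to 0.36) and 0.090 (95% interval −0.30 to 0.48), and with the RUV factor MT1X was at −1.60 (adjusted p = 0.0167). In all, 1 of 6 fell and 1 rose, where 41.6% of all genes fell and 40.3% rose, and 1 (MT1F) was past the thresholds of the study, as were 26.7% of all genes.

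With E2+TNFα relative to vehicle, which shares its control libraries with the preceding comparisons, MT2A was at −0.91 ± 0.18 (adjusted p = 0.000311, edgeR) and MT1E at −1.05 ± 0.14 (adjusted p = 9.34e-06). Their groups did not overlap, at 839.5 to 1197 CPM against 1810 to 2063 CPM for MT2A and at 124 to 157 CPM against 253 to 307 CPM for MT1E. MT1A was at −1.03 ± 0.32 (adjusted p = 0.00778), MT1F at 1.83 ± 0.28 (adjusted p = 2.88e-05) and MTF1 at −0.56 ± 0.13 (adjusted p = 0.000938). With the RUV factor MT2A was at −2.39, MT1E at −1.51, MT1A at −2.51 (adjusted p = 0.101) and MT1F at 0.25. After removal of the trends MT2A was at −1.91, MT1E at −1.89, MT1A at −1.66 and MTF1 at 0.016. MT1X, at −0.20 (95% interval −0.66 to 0.25), was at −1.92 (adjusted p = 0.0103) and −0.72 (adjusted p = 0.00496) under these treatments. Of the 6 genes 3 fell and 1 rose, where 41.5% of all genes fell and 39.1% rose, and 1 was past the thresholds of the study, as were 25.1% of all genes.

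In cells given E2, the addition of TNFα gave no call among these genes. None of the 6 passed an adjusted p of 0.1, where 3.34% of all genes fell and 2.65% rose, and none was past the thresholds of the study, where 0.407% of all genes were. In the edgeR fit 3 of them had an unadjusted p under 0.05, namely MT1E (−0.40), MT1X (−0.56) and MTF1 (0.29), and their adjusted p were 0.141, 0.174 and 0.242. Without E2 replicate 3, MT1E and MT1X passed, at −0.54 and −0.76 (adjusted p = 0.0283 and 0.0467). DESeq2 called 1 of the 6 genes, MT1E, at an adjusted p of 0.0710. MT2A differed by −0.21 (95% interval −0.59 to 0.18), with E2 libraries at 888 to 1566 CPM around the E2+TNFα libraries at 839.5 to 1197 CPM.

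The effect of E2 with TNFα and without it was compared by the interaction term, which again rests on the vehicle libraries. For MT2A the fall with TNFα differed from that without it by −0.13 (95% interval −0.67 to 0.41), and MT1E differed by −0.34 (95% interval −0.76 to 0.091). With the trends removed these differences turned to 0.87 for MT2A and 0.64 for MT1E, so their direction depended on the treatment of the counts. For MT1F the term was −2.17 ± 0.39 (adjusted p = 0.000184, edgeR) and for MTF1 it was 1.20 ± 0.18 (adjusted p = 4.05e-05). Of the 6 genes 1 fell and 1 rose by this term, where 37.6% of all genes fell and 39.0% rose, and MT1F alone was past the thresholds of the study, as were 31.8% of all genes.

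The other genes of zinc transport were read from lists of the exporter family SLC30 (ZnT) and the importer family SLC39 (ZIP). In E2+TNFα relative to TNFα, 1 of 5 tested exporters rose and none fell, with a median of −0.054, where 24.4% of all genes rose and 21.0% fell. The one that rose was SLC30A4, which loads zinc into vesicles, at 1.13 ± 0.24 (adjusted p = 0.00167, edgeR), from a mean of 2.15 to 4.73 CPM. Of 11 tested importers, 4 rose, 1 fell and 6 did not pass, with a median of 0.28, so neither list stands out from the background. The one that fell was SLC39A14 (ZIP14), the importer that inflammation induces, from 163 to 85.5 CPM (log2 fold change −0.93 ± 0.11, adjusted p = 9.46e-06). SLC39A4 (ZIP4), the zinc importer of the gut, rose from 51.8 to 89.5 CPM (0.79 ± 0.18, adjusted p = 0.00300). No importer or exporter was past the thresholds of the study in this comparison.

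Relative to vehicle, 4 of 5 exporters fell with E2 and none rose (median −1.20), and of 11 importers 5 rose and 4 fell (median 0.12), where 41.7% of all genes fell and 40.1% rose. GC-poor genes were the lowest and GC-rich genes the highest. SLC30A9 (39.7% GC) was at −2.78 and SLC39A10 (37.8% GC) at −2.66, whereas SLC39A4 (65.5% GC) was at 2.07, SLC39A3 (60.6% GC) at 1.78 and SLC39A1 (58.5% GC) at 1.62. With the trends removed SLC39A10 was at 0.025, SLC30A9 at −1.02 and SLC39A4 at 1.20, and the exporters SLC30A5, SLC30A6 and SLC30A7 turned from −0.84, −1.43 and −1.20 to 1.25, 0.61 and 1.49. SLC39A14, whose GC content of 49.3% is close to the median of all genes in the table (49.7%), was at −0.69 (adjusted p = 3.93e-05, edgeR), −0.55 with the trends removed and −0.73 with the RUV factor. In TNFα relative to vehicle all 5 exporters fell, and 6 importers rose and 4 fell, where 41.6% of all genes fell and 40.3% rose. With the trends removed all exporters but SLC30A9 had a difference above 0 in that comparison. In E2+TNFα relative to vehicle 4 exporters fell, and 4 importers rose and 4 fell, where 41.5% of all genes fell and 39.1% rose. In E2+TNFα relative to E2 no exporter or importer passed at an adjusted p of 0.1, where 3.34% of all genes fell and 2.65% rose.

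Metallothioneins also hold copper and answer to oxidants and glucocorticoids, and the genes of these pathways were read in the same way. Of 8 tested genes of copper handling, 3 rose and 1 fell in E2+TNFα relative to TNFα (median 0.25), beside 24.4% and 21.0% of all genes. COX17, which carries copper into mitochondria, was past the thresholds of the study at 1.55 ± 0.18 (adjusted p = 7.29e-06, edgeR), from 11.7 to 34.2 CPM. Of 12 genes of the oxidative and electrophile response driven by NRF2, 5 rose and 1 fell (median −0.015). HMOX1, which breaks down heme, was at 32.2 CPM with TNFα and at 283 CPM with E2+TNFα (log2 fold change 3.14 ± 0.14, adjusted p = 2.05e-10), and at 55.3 CPM in vehicle and 301 CPM with E2 (2.44 ± 0.13, adjusted p = 1.21e-09). MT2A and HMOX1 thus moved in opposite directions with E2 in both settings. Other genes of this list went the way of MT2A in E2 relative to vehicle, with SLC7A11 at −2.66, TXNRD1 at −2.05 and NFE2L2 at −2.05. In that comparison 1 gene of the list was past the thresholds of the study upward and 4 downward, where 30.5% of all genes passed in either direction. In E2 relative to vehicle 5 copper genes rose and none fell (median 0.93), and 5 genes of the NRF2 list rose and 6 fell (median −0.091), beside 40.1% and 41.7% of all genes.

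Of the 7 tested genes of the glucocorticoid receptor list, 6 fell in E2+TNFα relative to TNFα, none rose and 1 did not pass, where 21.0% of all genes fell (median −1.15, beside 0.042 for all genes). The receptor gene NR3C1 was at −0.92 ± 0.23 (adjusted p = 0.00549, edgeR). TSC22D3 (GILZ), an anti-inflammatory target of the receptor, was past the thresholds of the study at −1.78 ± 0.15 (adjusted p = 3.19e-07), from 45.3 to 13.2 CPM. It was higher with TNFα than in vehicle (45.3 against 9.18 CPM, log2 fold change 2.30 ± 0.15). FKBP5, PER1, SGK1 and ERRFI1 were the other 4, at −0.68 to −1.37, and DUSP1, which is induced by many stimuli, did not pass (0.29, adjusted p = 0.136). Relative to vehicle, 5 of these genes fell with E2 and 2 rose (median −1.61), where 41.7% of all genes fell and 40.1% rose, with NR3C1 at −2.58, −0.53 with the trends removed.

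The calls differed along the metallothionein cluster, though a difference between copies was not tested. Nor was it tested whether reads of MT2A or MT1E were counted as MT1A. Over 75.6 kb, MT2A, MT1E and MT1A, the first 3 of the 5 tested copies in genome order, fell in E2+TNFα relative to TNFα, and MT1F and MT1X, farther along, did not pass the test. The interval of MT1X (−0.57 to 0.34) overlaps that of MT2A (−1.21 to −0.45), and MT1X passed in 3 of 11 other treatments of the counts. Of 10 tested neighbours that start within 500 kb of a metallothionein row, 5 fell and none rose, where 21.0% of all genes fell and 24.4% rose. HERPUD1, a stress gene of the endoplasmic reticulum 323 kb from MT2A, fell most, at −1.67 ± 0.11 (adjusted p = 2.50e-08, edgeR). NLRC5, a regulator of MHC class I genes, was at −0.93 ± 0.17, GNAO1, a G protein subunit, at −0.85 ± 0.16, NUDT21, a factor of mRNA 3′ end processing, at −0.39 ± 0.12 and NUP93, a nuclear pore protein, at −0.27 ± 0.11.

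**Figure D4:**
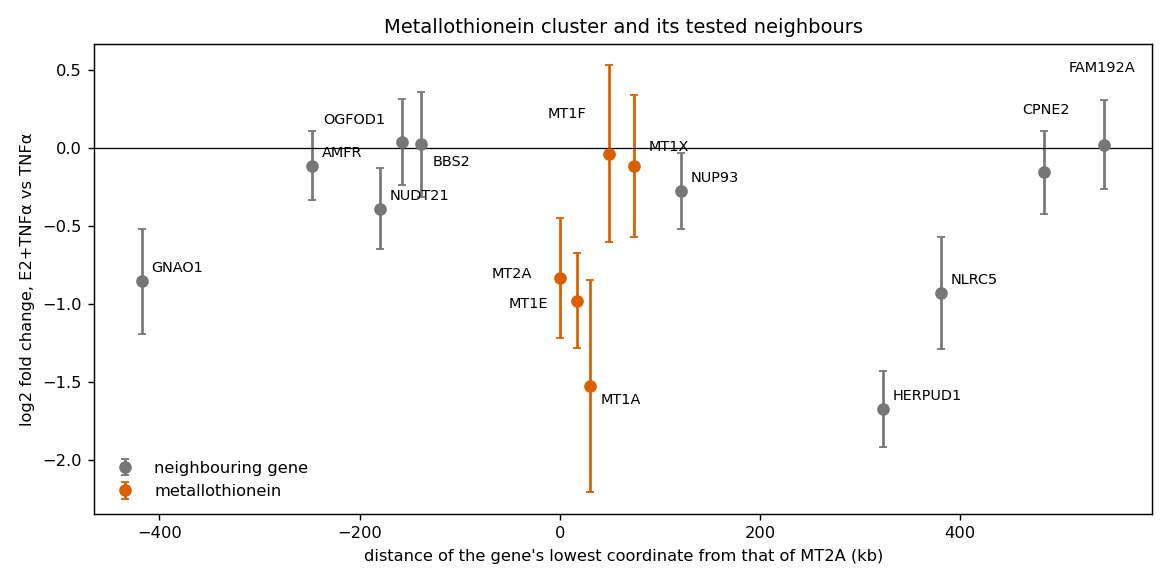
Log2 fold change in E2+TNFα against TNFα with its 95% interval (vertical) against distance from MT2A in kb (horizontal), for the 5 tested metallothioneins (orange) and the 10 tested neighbours (grey) on chromosome 16. MT2A, MT1E and MT1A lie between −0.83 and −1.52, MT1F and MT1X near 0, and among the neighbours HERPUD1 is lowest at −1.67.

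Across the 12 libraries, the log2 levels of MT2A and MT1E ran together (Pearson r = 0.90), as did those of MT2A and MT1A (r = 0.88). The level of MT2A followed those of MTF1 (r = 0.29), SLC30A1 (r = 0.31) and MT1X (r = 0.26) only weakly, and MT1F ran against MTF1 (r = −0.89). These correlations describe 12 libraries that also share group, depth and base composition. Whether reads shared between the metallothionein copies contributed to them was not tested. The genes whose levels were most like MT2A were PPARD (r = 0.96), ABCB6, THOC6, FCGBP and MKNK2 (r = 0.95 each), with exon GC of 57.0% to 63.3%. For MT1E they were SLC25A33 (r = 0.97), PFDN2, TLCD5, IGFBPL1 and LSM6, for MT1F DNAAF3, AP5S1, IFI30, DNAJC30 and PYCR3 (r = 0.98 each), for MT1X HAGH, FTL, MTX1, RPLP0 and EIF3K (r = 0.88 to 0.90), for MTF1 MAP1B, TMF1, NAV3, USP38 and SECISBP2L (r = 0.98 to 0.99), and for SLC30A1 ZBTB39, RBSN, CAMSAP1, TAP2 and IDS (r = 0.64 to 0.73). For MT1F the genes named have 54.3% to 63.2% GC, and for MTF1 they have 36.1% to 44.9%.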

How the data were processed

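Gene-level read counts from 12 libraries of MDA-MB-231-ERβ cells (vehicle, TNFα, E2 and E2+TNFα, 3 each, polyA-selected stranded mRNA) were re-analysed. The deposited values are raw whole-number counts per gene, which the authors made with TopHat2 2.1.0 and featureCounts on hg38, per the labels. They do not contain the RUVseq correction for batch effects that the methods of the study describe. The table was reduced to 12451 genes by dropping 46 exact repeats and 70 duplicates of the same locus under a second symbol, with no gene of this report among them.

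Library sizes were scaled by TMM. A single model with the 4 group means was fitted in edgeR 4.0.16 under R 4.3.3 and tested by quasi-likelihood. Genes entered if RPKM, computed from the counts and summed exon length, reached 1 in 3 or more libraries, which left 11303. P-values were adjusted over all of them (Benjamini-Hochberg) and passed at 0.1. The thresholds of the study (log2 fold change of 1.5, p of 0.05, adjusted p of 0.1) were applied as a further call. The script was tested on simulated data. Totals of 7652016 to 39943664 counts leave counting error largest for MT1G, MT1A and MT1F, and SLC30A1 had as few as 90 counts in a library.

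Alternatives were the size factors of DESeq2, library size only, no filter, a minimum of 10 counts in all libraries, a replicate block, a RUV factor from 20 housekeeping genes, DESeq2 1.42.0, the likelihood ratio test, fits of the compared groups only, removal of loess trends (span 0.3) with exon GC content and length, with and without the block, metallothionein rows summed, and each library left out in turn. By rule, the text names the 7 genes, at most 4 genes past the thresholds per list and comparison, tested neighbours and the 5 genes most correlated with each of the 6 tested. All other genes named from the lists were chosen after their values were seen, as was MT1A in comparisons other than E2+TNFα against TNFα. The 7 genes and the lists were chosen with earlier results of these data known. Sequences come from hg38 with GENCODE annotation and from RefSeq promoters (GRCh38.p14).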

Additional observations from a re-analysis of the deposited data

Results flagged for a closer look

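The effect of E2 differed with and without TNFα for 3 genes by the interaction term of the edgeR fit (change with TNFα minus change without). At an adjusted p of at most 0.1, 37.6% of all genes fell and 39.0% rose by this term, so such a difference was common. For MT1F the term was −2.17 (adjusted p = 0.000184), since E2 raised it relative to vehicle (2.13) and not relative to TNFα (−0.038). It was −0.35 (adjusted p = 0.818) with the RUV factor. For MTF1 the term was 1.20 (adjusted p = 4.05e-05), since E2 lowered it relative to vehicle (−0.85) and raised it relative to TNFα (0.35). Its adjusted p was 0.105 with the RUV factor (1.20), and removal of the trends with GC content and length left 0.32. For MT1A the term was −1.17 (adjusted p = 0.0346), with −0.35 relative to vehicle and −1.52 relative to TNFα, and it was −0.60 (adjusted p = 0.242) with the trends removed. Each term rests on the vehicle libraries, whose difference from the other libraries cannot be told apart from the treatments.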

How the results depend on the processing

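E2+TNFα relative to TNFα kept the direction and adjusted p of at most 0.1 of MT2A, MT1E and MT1A in every alternative that tested them, but MT1A fell short of the thresholds of the study (−1.44) without TNFα replicate 3 or E2+TNFα replicate 2. Comparisons with vehicle moved most, and the cause was not tested. The RUV factor itself separated the vehicle libraries from all others, as given above. With the RUV factor, 2 genes were past the thresholds of the study in E2 against vehicle, 3 in E2+TNFα against vehicle and 2 in the interaction, and 2 passed at an adjusted p of 0.1 in E2 against vehicle. With that factor 1453, 1252 and 1086 of all 11303 genes were past the thresholds, and 1958 passed in E2 against vehicle. Directions reversed there for MT1X in E2 (−1.83), SLC30A1 (−0.13) and MT1A (−0.82) in TNFα, MT2A (0.21) and MT1F (0.12) in E2+TNFα against E2, and in the interaction for MT2A (1.59), MT1E (0.19), MT1X (1.51), SLC30A1 (0.25) and MT1A (0.52). With the trends removed, and in brackets with the replicate block too, 2 (2) genes were past the thresholds in E2, 0 (0) in TNFα, 2 (2) in E2+TNFα against vehicle and 0 (0) in the interaction, and 4 (4) passed at an adjusted p of 0.1 in TNFα against vehicle and 4 (4) in the interaction. Of all 11303 genes, 1574 (1562), 1185 (1192), 1233 (1247) and 1557 (1554) were past the thresholds. At an adjusted p of 0.1, 8602 (8455) and 7629 (7447) passed. Reversed were MT1X in E2 at −0.39 (−0.38), SLC30A1 in TNFα at −0.12 (−0.098), MTF1 in E2+TNFα against vehicle at 0.016 (0.013), MT2A and MT1F in E2+TNFα against E2 at 0.12 (0.13) and 0.038 (0.045), and in the interaction MT2A at 0.87 (0.87), MT1E at 0.64 (0.64) and SLC30A1 at 0.29 (0.26).

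With library size only, the median of all genes moved to −0.38 in E2 against vehicle, −0.19 in TNFα against vehicle and −0.26 in E2+TNFα against vehicle. Then 4 genes passed at an adjusted p of 0.1 in TNFα, 2 were past the thresholds in the interaction, and MT1X in E2 (−0.019), SLC30A1 in TNFα (−0.11) and, in the interaction, MT2A (0.20) and SLC30A1 (0.28) reversed. Of all 11303 genes, 9111 passed in TNFα and 3647 were past the thresholds in the interaction with that scaling. Without a filter MT1G was tested and 2 genes were past the thresholds in each comparison with vehicle. With at least 10 counts in every library, SLC30A1 in the interaction was at 0.034. The likelihood ratio test and DESeq2 each gave 1 gene with an adjusted p of at most 0.1 in E2+TNFα against E2. Of all 11303 genes, 1124 and 1347 passed in these 2 tests.

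Leaving out 1 library in turn gave 0 to 2 genes with an adjusted p of at most 0.1 in E2+TNFα against E2 and 2 to 4 in the interaction, both highest without E2 replicate 3. It took differences near 0 across it, namely SLC30A1 in E2 (−0.33 to 0.027), TNFα (−0.091 to 0.27), E2+TNFα against vehicle (−0.27 to 0.086), E2+TNFα against E2 (−0.015 to 0.11) and the interaction (−0.21 to 0.15), MT2A in TNFα (−0.12 to 0.014), E2+TNFα against E2 (−0.38 to 0.037) and the interaction (−0.28 to 0.024), MT1E in TNFα (−0.16 to 0.022), and MT1F (−0.15 to 0.10) and MT1X (−0.24 to 0.043) in E2+TNFα against TNFα. MTF1 in E2+TNFα against TNFα did not pass without TNFα replicate 1 or 2 (0.28 and 0.33). Replicate numbers did not pair the samples (correlation of deviations over 0.1 in 4 of 18 pairs, from −0.45 to 0.43). With the replicate block MT2A was at −0.83 and MT1E at −0.99 in E2+TNFα against TNFα, and no call on these genes changed. The 6 metallothionein rows summed gave −0.66 in E2 against vehicle and −0.83 in E2+TNFα against TNFα. Depth limits MT1G, MT1A and MT1F most, at 0 to 188 counts per library.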
